A study of Mus musculus with 2 samples.

Results

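The contactins and the contactin-associated proteins are cell adhesion molecules of the neuronal surface. The 10 genes described here are Cntn1, Cntn2, Cntn3, Cntn4, Cntn5 and Cntn6, and Cntnap2, Cntnap4, Cntnap5a and Cntnap5b. They were taken by their symbols from the 55416 genes of the deposited tables, where all 10 were found. The genes were chosen with their counts by neuron type and library known, so their levels are given as a description and carry no test. Nuclei of whole brain from fetal mice were profiled by single-nucleus RNA-seq, which counts each captured RNA once by its unique molecular identifier (UMI). One group is wildtype and the other carries a knockout of Cav1, the gene of caveolin 1, a coat protein of plasma membrane caveolae. Each genotype has 1 library. The fetal stage, strain, sex, number of brains per library and the knockout allele are not given in the sources used here.

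Contactins are immunoglobulin-domain proteins held to the membrane by a lipid (GPI) anchor, so they have no cytoplasmic part of their own. They bind partner proteins beside them on the same membrane and across the cleft to another cell, and they are known for roles in axon growth, fasciculation and synapse formation. Contactin-associated proteins of the Caspr family are transmembrane relatives of the neurexins. The best known pairs are CNTN1 with CASPR at the paranode and CNTN2 with CASPR2, the product of Cntnap2, at the juxtaparanode of myelinated axons. In the fetal brain, before myelin forms, the same molecules are found on growing axons.

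The wildtype-labelled library held 9763 barcodes and the knockout-labelled library 10811. Nuclei with at least 500 genes and at most 5% mitochondrially encoded UMIs were kept, which left 6686 and 6680 nuclei with a median of 2133.5 and 2366.0 UMIs. The kept nuclei carried 17205381 and 19878903 UMIs in all, and 43 barcodes occurred in both libraries, 10 of them among the kept nuclei of both. Cav1 itself had 71 and 80 UMIs. Its log2 ratio, knockout-labelled over wildtype-labelled, was -0.04 with a 95% interval from -0.52 to 0.45. In the endothelial cell-like cluster, where caveolae are abundant, it had 17 UMIs against 1. Total Cav1 did not separate the libraries. In the endothelial cell-like cluster, of 48 and 64 nuclei, the few UMIs differed in the direction of the labels. The genotype is stated below as the label gives it. With 1 library per genotype there is no replicate error, and every interval covers counting error only.

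Clustering without the 10 genes gave 29 clusters. Of these, 16 were called neuron-like, holding 4537 and 4212 nuclei of the wildtype- and knockout-labelled libraries. Each is called by the class its marker genes fit and by its leading gene. The Stk33-led Dlx inhibitory neuron-like cluster also carried 8 dividing-cell markers, with Top2a and Kif11 among its leading genes. It is kept among the 16, but its low levels are not read as a difference between neuron types. Clusters called only "neuron-like" carried general neuron markers and no regional class. Most other clusters were progenitor-like, glial, vascular, fibroblast-like, epithelial or microglial. The Robo3-led cluster was cerebellar or rhombic lip cell-like, with 4 and 84 nuclei. Another 2 clusters stayed unnamed. One of those, led by the globin gene Hba-x, held 628 and 966 nuclei with a median of 717 UMIs. The other, led by Kif23, had a median of 7438 UMIs and held 71.2% and 53.7% nuclei among the highest 8% of doublet scores. Endothelial and mural cell-like nuclei, used below as background, had 19.8% and 22.1% among them.

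Most of these genes are very long. On GRCm39, Cntnap2 (chr6:45036291-47281147, plus strand) spans 2244.9 kb, Cntn5 (chr9:9658790-10904780, minus strand) 1246.0 kb, and Cntn4 (chr6:105654599-106677105, plus strand) 1022.5 kb. Cntnap5a (chr1:115612486-116515053, plus strand) spans 902.6 kb and Cntnap5b 717.9 kb on the same chromosome, and 8 of the 10 genes exceed 300 kb. The median span of the 15454 genes with at least 100 UMIs and an annotation was 25.9 kb. Cntn2 (chr1:132437165-132470994, minus strand) is the exception at 33.8 kb, of which 28.6% is exonic, against 0.458% to 5.85% for the other members. Cntnap2, Cntn3, Cntn6 and Cntn4 lie on chromosome 6, as Cav1 does, at 27.69, 84.80, 87.13 and 88.31 Mb from it.

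Promoter sequences are shown for 4 members: Cntn4, the 2 members most like it across nucleus classes, Cntn6 and Cntnap2, and Cntn2, which followed none of them. Cntn6 and Cntnap2 were less like each other, with r = 0.55. The windows are the 250 bases before the RefSeq transcription start on the gene's strand, build GRCm38.p6, with CG dinucleotides in capitals. RefSeq promoters were matched by symbol for 8 of the 10 members, and the first of the listed starts was used. An exact match of the windows to GRCm39 placed the starts of Cntn2, Cntn6 and Cntnap2 within 0.7 kb of the annotated gene start. The window of Cntn4 lies before an internal start, 441.1 kb inside the gene, so its letters are not those of the outermost start.
Cntn4, chr6:106118515-106118764, plus strand: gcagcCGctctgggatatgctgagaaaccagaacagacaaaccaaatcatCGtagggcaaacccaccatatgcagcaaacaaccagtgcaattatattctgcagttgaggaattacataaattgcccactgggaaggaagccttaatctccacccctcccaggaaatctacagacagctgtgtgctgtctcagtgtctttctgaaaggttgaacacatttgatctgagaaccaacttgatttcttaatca
Cntn6, chr6:104492794-104493043, plus strand: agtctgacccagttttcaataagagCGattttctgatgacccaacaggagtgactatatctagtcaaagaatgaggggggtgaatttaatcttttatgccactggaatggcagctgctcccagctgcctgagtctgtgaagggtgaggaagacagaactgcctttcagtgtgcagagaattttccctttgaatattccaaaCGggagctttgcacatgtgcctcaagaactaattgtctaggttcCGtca
Cntnap2, chr6:45059811-45060060, plus strand: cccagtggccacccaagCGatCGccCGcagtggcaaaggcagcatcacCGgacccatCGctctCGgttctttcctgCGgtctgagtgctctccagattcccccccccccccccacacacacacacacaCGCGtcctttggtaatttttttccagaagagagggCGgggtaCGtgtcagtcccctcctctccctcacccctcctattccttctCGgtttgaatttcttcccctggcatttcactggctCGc
Cntn2, chr1:132542941-132543190, minus strand: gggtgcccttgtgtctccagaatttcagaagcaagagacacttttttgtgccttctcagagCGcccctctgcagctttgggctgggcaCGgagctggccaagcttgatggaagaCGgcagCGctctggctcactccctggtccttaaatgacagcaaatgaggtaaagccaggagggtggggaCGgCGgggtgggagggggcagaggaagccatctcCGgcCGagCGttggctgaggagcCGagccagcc
The windows differ in CG content: Cntn4 has 2 CG dinucleotides, Cntn6 has 3, Cntn2 has 10 and Cntnap2 has 13, where the median of 32851 promoters of the same length is 6. The sequence CANNTG, the core of the E-box read on both strands alike, occurs 4 times in the Cntn4 window, 4 times in that of Cntn6, once in that of Cntn2 and not in that of Cntnap2. It is found in 66.2% of all promoters. None of the 4 windows holds CAGATG or its reverse complement, a special case of CANNTG, which 14.4% of promoters hold.

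Levels are given as CPM, the UMI counts of a gene scaled to the same total for every group of nuclei. Of 2 values, the first is from the wildtype-labelled and the second from the knockout-labelled library. Cntn1, the contactin of the paranode and of oligodendrocyte precursors, had 137 and 164 CPM over all kept nuclei. Among neurons it was highest in the Ebf2-led neuron-like cluster, at 351 (95% interval 289 to 422) and 305 (267 to 348). The Isl1-led Dlx inhibitory neuron-like cluster (267 and 304) and the Snhg11-led neuron-like cluster (287 and 264) had intervals that overlapped these. Cntn1 was lowest, and about equally so, in the Stk33-led (8.68 and 14.4), Unc5d-led (10.7 and 12.3) and Cajal-Retzius cell-like clusters. The last had 15.6 and 7.33, from 2 and 1 UMIs of Cntn1. Outside neurons Cntn1 reached 457 and 435 in the oligodendrocyte precursor-like cluster and 326 and 357 in the choroid plexus epithelium-like cluster. The precursor-like cluster held 21 and 44 nuclei, with 47.6% and 25.0% among the highest 8% of doublet scores. The choroid plexus epithelium-like cluster had 16.52% and 15.96% among them. The highest Cntn1 levels were therefore not confined to neuron clusters, but the part of doublets in these levels was not tested.

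Cntn2, also known as TAG-1, is an early axonal marker of migrating and newly projecting neurons. Its pattern across neurons was unlike that of every other member. The Slit3-led neuron-like cluster had 333 (277 to 398) and 438 (370 to 514), and the Unc5d-led migrating cortical neuron-like cluster had 356 (321 to 395) and 387 (346 to 433). These were the highest of the 15 neuron clusters shown here, and their intervals overlapped in both libraries. Deep-layer cortical neuron-like nuclei had 216 and 237. In the Snhg11-led cluster, where most other members were high, Cntn2 had 69.3 and 57.2. After thinning each nucleus to 1000 UMIs, 24.8% (21.0 to 28.9, exact binomial) and 25.2% (20.7 to 30.1) of Unc5d-led nuclei had a Cntn2 UMI. In the endothelial cell-like cluster, which should lack it, 6.82% and 1.59% did, at median depths of 3055.5 and 3602.0 UMIs against 1993.0 and 2052.0.

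Cntn3, Cntn4, Cntn5 and Cntn6 are contactins known from studies of sensory, olfactory and cerebellar circuits. Cntn3 had 88.8 and 91.4 CPM over all nuclei. It was highest in inhibitory clusters: the Isl1-led cluster had 331 (225 to 470) and 375 (264 to 516), and the Ikzf1-led cluster had 362 (299 to 434) and 228 (173 to 295). Which of these 2 clusters was higher differed between the libraries, and their intervals overlapped. Fibroblast-like nuclei, of meningeal type by their collagen genes, had as much, at 480 and 293. Cntn3 overlaps an antisense RNA, 4930587E11Rik, whose level was the most like it of all genes, with r = 0.95. The antisense RNA was counted separately, at 676 and 796 UMIs beside 1527 and 1816 of Cntn3. Whether the counting used the strand is not given in the sources used here. It therefore cannot be told whether reads of either gene were counted for the other.

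Cntn4 had 247 and 328 CPM over all nuclei. It was highest in thalamic neuron-like nuclei, at 959 (896 to 1026) and 1002 (935 to 1072). Midbrain excitatory neuron-like nuclei were next, at 709 (657 to 764) and 986 (925 to 1049). The Snhg11-led cluster had 661 and 605, and Gata and Tal1 inhibitory neuron-like nuclei had 405 and 441. The Unc5d-led migrating cortical cluster was near the bottom, with 6.79 and 7.40. The thalamic and midbrain levels stood apart in the wildtype-labelled nuclei and overlapped in the other library. At 1000 UMIs per nucleus, 37.8% (32.1 to 43.8) and 37.1% (30.6 to 44.0) of thalamic neuron-like nuclei had a Cntn4 UMI, against 2.27% and 4.76% of endothelial cell-like nuclei.

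Cntn5 stood out for its level in 1 inhibitory cluster. It had 5293 (5043 to 5552) and 4997 (4723 to 5281) CPM in the Ikzf1-led Dlx inhibitory neuron-like cluster, which was also led by Rarb, Rxrg, Isl1 and Ebf1. The next cluster, thalamic neuron-like, had 1407 and 1220, and the Snhg11-led cluster had 1236 and 1199. The dividing Stk33-led Dlx cluster was lowest, at 8.68 and 20.2, from 3 and 7 UMIs. After thinning to 1000 UMIs, 84.8% (76.4 to 91.0) and 89.9% (81.0 to 95.5) of Ikzf1-led nuclei had at least 1 Cntn5 UMI. Endothelial cell-like nuclei had one in 4.55% and 12.7%. The Ikzf1-led cluster was small, with 107 and 81 nuclei, yet both libraries placed it above all 15 other neuron clusters.

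Cntn6 had 57.6 and 68.1 CPM over all nuclei. It was highest in thalamic neuron-like nuclei, at 284 (250 to 321) and 323 (286 to 364). The Snhg11-led cluster had 120 and 121. In the Isl1-led cluster Cntn6 had 203 (122 to 317) and 20.3 (2.46 to 73.2), from 19 and 2 UMIs. It had 1.94 and 4.94 in the Unc5d-led migrating cortical cluster, and 10.2 and 7.99 in Lhx6 interneuron-like nuclei. Thalamic neuron-like nuclei therefore carried the highest levels of both Cntn4 and Cntn6.

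Cntnap2 encodes CASPR2, which clusters potassium channels at the juxtaparanode and is known for its link to cortical interneuron development and autism. It had 793 and 1065 CPM over all nuclei. The Cajal-Retzius cell-like cluster was highest, at 3262 (2957 to 3590) and 3841 (3519 to 4184), although it held only 40 and 34 nuclei. The Ebf2-led (2388 and 1928), Snhg11-led (1912 and 2192), midbrain excitatory (2015 and 1748), Gata and Tal1 (1988 and 1655) and thalamic (1736 and 1664) clusters followed. Lhx6 interneuron-like nuclei had far less, at 321 and 292, and the Unc5d-led migrating cortical cluster had 81.5 and 85.1. In endothelial and mural clusters together Cntnap2 still had 499 and 605, and 8 of the 16 neuron clusters lay above the mean of that pool. In the endothelial cell-like cluster 15.9% and 15.9% of thinned nuclei had a UMI, against 75.7% and 81.8% of Cajal-Retzius cell-like nuclei. Levels of Cntnap2 near 500 CPM are therefore no higher than those of this pool. The pool is not a floor: the Unc5d-led cluster (81.5 and 85.1) and the left-out barcodes with under 500 genes (113 and 111) had less. What part of the pool's level is background was not tested.

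Cntnap4, known from synapses of cortical interneurons, was highest in Lhx6 interneuron-like nuclei, at 412 (372 to 454) and 436 (390 to 486). All 15 other neuron clusters lay below it in both libraries with intervals apart. The next was the Tafa1-led neuron-like cluster, at 239 and 271. In the Lhx6 interneuron-like cluster 26.7% (22.7 to 30.9) and 22.3% (17.9 to 27.2) of thinned nuclei had a Cntnap4 UMI. For the 9 other members the same cluster ranked between 11 and 13 of the 16 neuron clusters.

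Cntnap5a and Cntnap5b are mouse relatives of Caspr5 that lie on chromosome 1. Cntnap5a was highest in the Ebf2-led (599 and 872) and Snhg11-led (609 and 834) neuron-like clusters, whose intervals overlapped in both libraries. Midbrain excitatory neuron-like nuclei had 376 and 365. Cntnap5b had another order: it was highest in Gata and Tal1 inhibitory neuron-like nuclei, at 544 (484 to 610) and 570 (497 to 651). The Ebf2-led cluster followed at 398 and 326 and the Snhg11-led cluster at 326 and 303. The Dlx6os1-led Dlx inhibitory cluster ranked 6 of 16 for Cntnap5b, with 230 and 265, and 12 for Cntnap5a, with 35.1 and 33.3. The Tafa1-led cluster ranked 9 for Cntnap5b, with 118 and 149, and 4 for Cntnap5a, with 336 and 344.

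**Figure D1:**
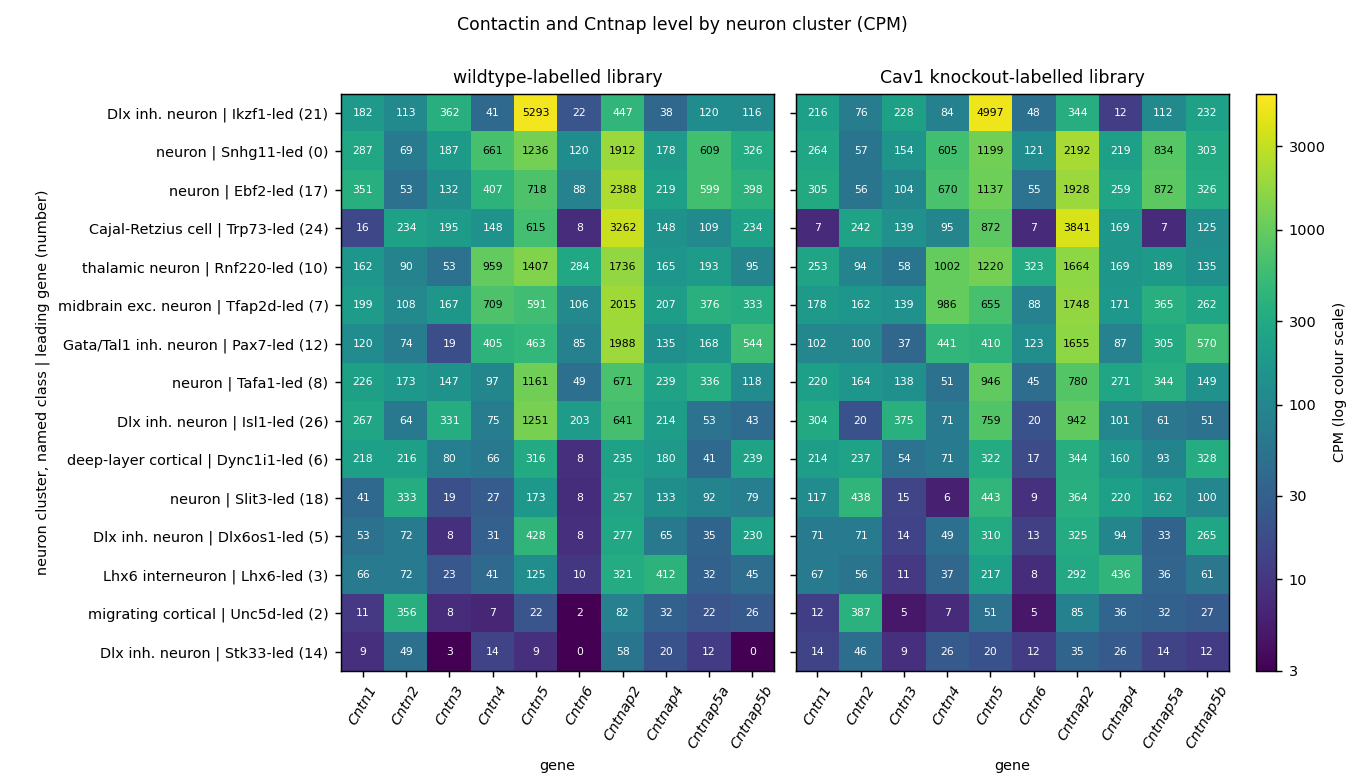
Level of each of the 10 genes (columns) in each of 15 neuron clusters (rows, ordered by the summed level), in CPM, for the wildtype-labelled library on the left and the knockout-labelled library on the right; colour is on a log scale. Cntn5 is highest in the Ikzf1-led cluster (5293 and 4997), Cntnap2 in the Cajal-Retzius cell-like cluster (3262 and 3841) and Cntnap4 in the Lhx6 interneuron-like cluster (412 and 436).

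Levels of different genes were compared per length, as CPM per 100 kb of gene span. On that scale Cntn2 stood far above the rest, at 427 and 377. The other 9 members lay between 15.5 and 47.8 in wildtype-labelled and between 18.4 and 56.3 in knockout-labelled nuclei. Before division by length, Cntn2 had 144 and 127 CPM, near Cntn1 (137 and 164) and Cntnap4 (143 and 154). The high value of Cntn2 per length therefore reflects its short span of 33.8 kb. Whether UMI counts rise with gene span was not tested. Cntn2 also differed from the others in the barcodes with under 500 genes, which were left out. There it had 175 and 117 CPM, against 144 and 127 in the kept nuclei. Cntnap2 had 113 and 111 in those barcodes against 793 and 1065 in kept nuclei, and Cntn5 had 35.5 and 28.2 against 596 and 664.

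**Figure D2:**
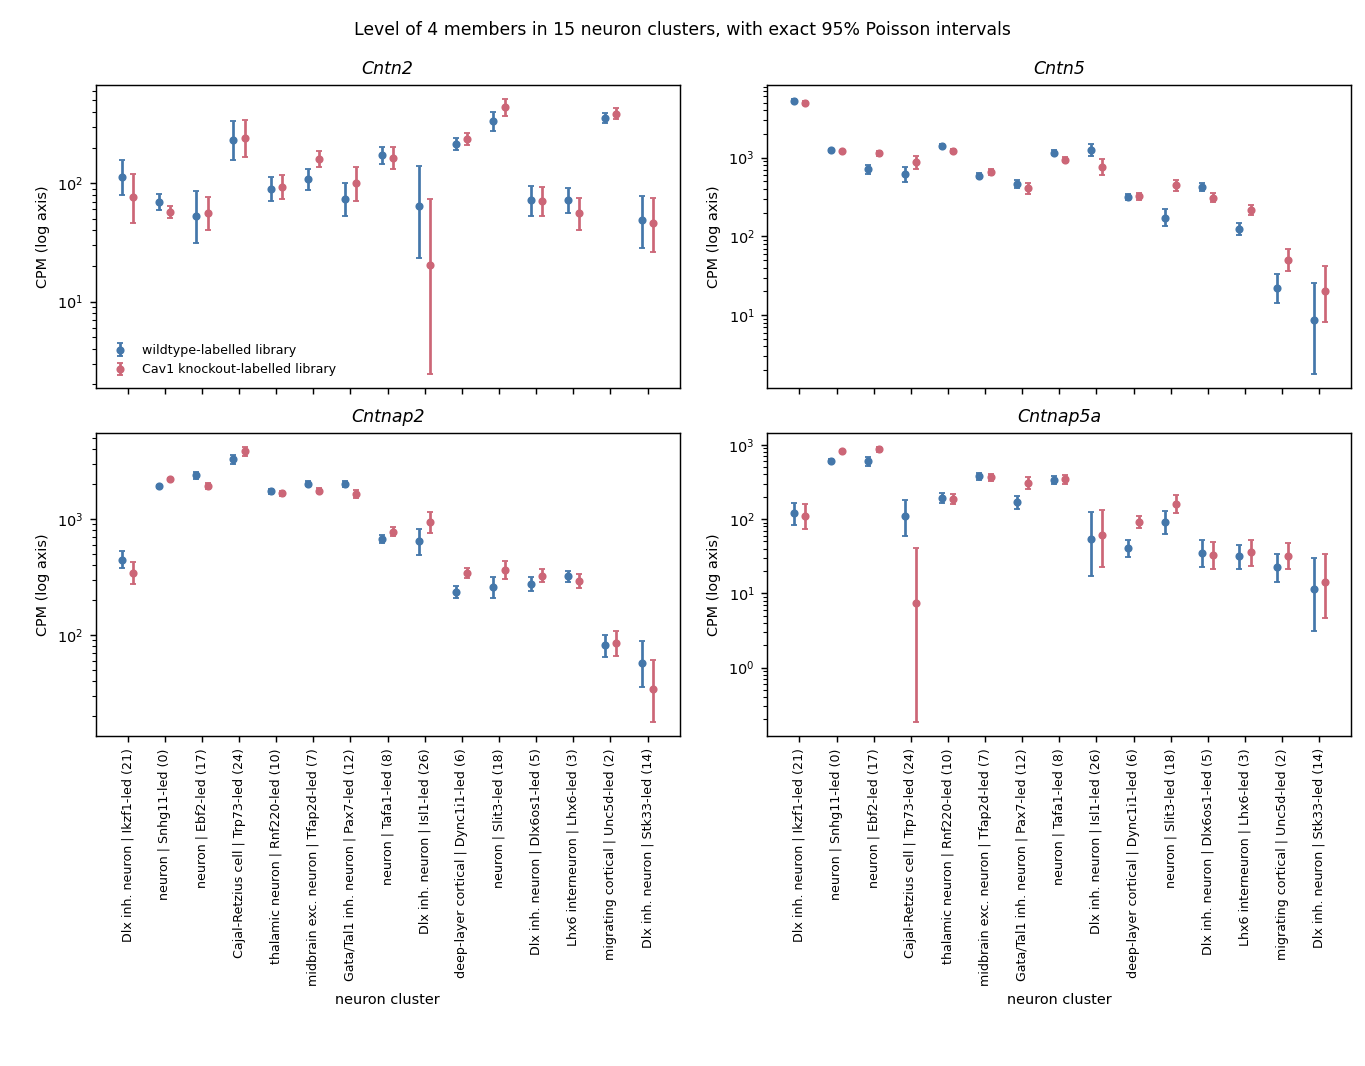
Level of Cntn2, Cntn5, Cntnap2 and Cntnap5a in CPM (log axis) in each of 15 neuron clusters, one point per library with its exact 95% Poisson interval. Both libraries give the same highest cluster for Cntn5 and Cntnap2, and Cntnap5a is higher in the knockout-labelled library in the Snhg11-led (609 and 834) and Ebf2-led (599 and 872) clusters.

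Likeness between genes was measured by Pearson's r of log2(CPM + 10) over 16 named classes in 2 libraries, 32 points that share libraries and depth, and no p is given. Cntn4 followed Cntnap2 with r = 0.82, Cntn6 with r = 0.82 and Cntnap5a with r = 0.80. Cntn2 had r between -0.21 and 0.20 with the other 9 members. Among 13256 genes, those most like Cntn2 were Nfasc (0.81), Gpm6a (0.81) and Ralgps2 (0.78). Nfasc encodes neurofascin, an L1 family adhesion molecule, and Gpm6a a neuronal membrane glycoprotein.

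Cntn6 was most like Ntng1 (0.94), a GPI-anchored netrin-G, Epb41l4b (0.84) and Tafa1 (0.84). Cntnap2 was most like Rcan2 (0.94), a calcineurin regulator, Mtus2 (0.94) and Gm43879 (0.91), which lies within Cntnap2 on the same strand. Cntn4 was most like Pcsk2 (0.85), a prohormone convertase, Grm8 (0.85), a glutamate receptor, and Galntl6 (0.85). Cntn5 was most like Myo16 (0.86), Lin28b (0.84) and Galntl6 (0.83). Cntn1 was most like Tmeff2 (0.83), Lhfpl3 (0.83) and Gm4876 (0.82), and Cntn3, after its antisense RNA, was most like Kcnt1 (0.74), a sodium-activated potassium channel, and Gk5 (0.73).

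Cntnap4 was most like Lgi1 (0.81), a secreted synaptic protein, then its antisense neighbour Gm45904 (0.80) and Pde4dip (0.79). Cntnap5a was most like Ptprr (0.90), Trank1 (0.88) and Gm28905 (0.88). Cntnap5b was most like Prdx2-ps1 (0.92), which overlaps it on the other strand, Sptbn4 (0.88), a spectrin of the axon initial segment, and Gm44829 (0.84).

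At 1000 UMIs per nucleus, the number of the 10 genes detected together differed among the neuron-like clusters. Ebf2-led nuclei had a mean of 2.67 and 2.45 members, Snhg11-led nuclei 2.41 and 2.41, thalamic neuron-like nuclei 2.21 and 2.15, and midbrain excitatory neuron-like nuclei 2.16 and 1.97. At least 3 members were seen in 44.7% and 44.9% of Snhg11-led nuclei. Unc5d-led migrating cortical nuclei had a mean of 0.426 and 0.481, and the dividing Stk33-led Dlx cluster 0.194 and 0.196. Endothelial and mural nuclei together had 0.312 and 0.541, so the Stk33-led cluster was below that background.

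The libraries were then compared over all kept nuclei. Of the 10 genes, 9 had a higher share of UMIs in the knockout-labelled library and Cntn2 a lower one. Cntnap5a differed most: it had 178 (172 to 185) and 338 (330 to 346) CPM, with a log2 ratio of 0.92 (0.86 to 0.98), or 1.90-fold. Cntnap2 had a log2 ratio of 0.42 (0.39 to 0.46) and Cntn4 of 0.41 (0.35 to 0.46), just past the 1.3-fold threshold that Cntn1, at 1.20-fold, did not reach. Cntn1 (0.26), Cntnap5b (0.25), Cntn6 (0.24), Cntn5 (0.16) and Cntnap4 (0.11) had intervals above 0. The interval of Cntn3 (0.04, from -0.06 to 0.14) included 0, and that of Cntn2 (-0.18, from -0.26 to -0.10) lay below it.

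Thus 3 of 10 members lay past 1.3-fold, all higher in the knockout-labelled library, where 9.01% of the 15528 genes with at least 100 UMIs did so in either direction, 5.97% higher and 3.04% lower. The members' median log2 ratio was 0.24, and that of all tested genes was -0.01. Since the members were chosen with these counts known, nothing is read from that difference. Among genes of at least 300 kb the share past 1.3-fold was 11.7%, and on chromosome 6 it was 9.47%.

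The make-up of the 2 libraries differed in the clusters where the members were high. The Snhg11-led cluster held 9.66% of wildtype-labelled nuclei and 16.7% of knockout-labelled nuclei, the Ebf2-led cluster 1.26% and 2.56%, and the unnamed Kif23-led cluster 1.56% and 2.43%. The Snhg11-led cluster held 47.2% and 56.9% of all Cntnap5a UMIs and 33.3% and 47.5% of all Cntnap2 UMIs. When the clusters were given the same weight in both libraries, the log2 ratio of Cntnap5a was 0.50, that of Cntnap2 0.15 and that of Cntn4 0.15, and 1 of the 10 members stayed past 1.3-fold. Without those 3 clusters the values were 0.29, 0.03 and 0.23, and none did. Snhg11, a neuronal long noncoding RNA that leads the cluster, had 711 and 1200 CPM over all nuclei, a log2 ratio of 0.76. Other clusters differed in share too. The unnamed Hba-x-led cluster held 9.39% and 14.5% of nuclei. The Robo3-led cerebellar or rhombic lip cell-like cluster held 0.06% and 1.26%, and the Unc5d-led migrating cortical cluster 7.79% and 5.69%. A different number of nuclei of a type in the brains and a different yield of nuclei cannot be told apart here. Nor can either be told from other differences in how the 2 libraries were made.

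**Figure D3:**
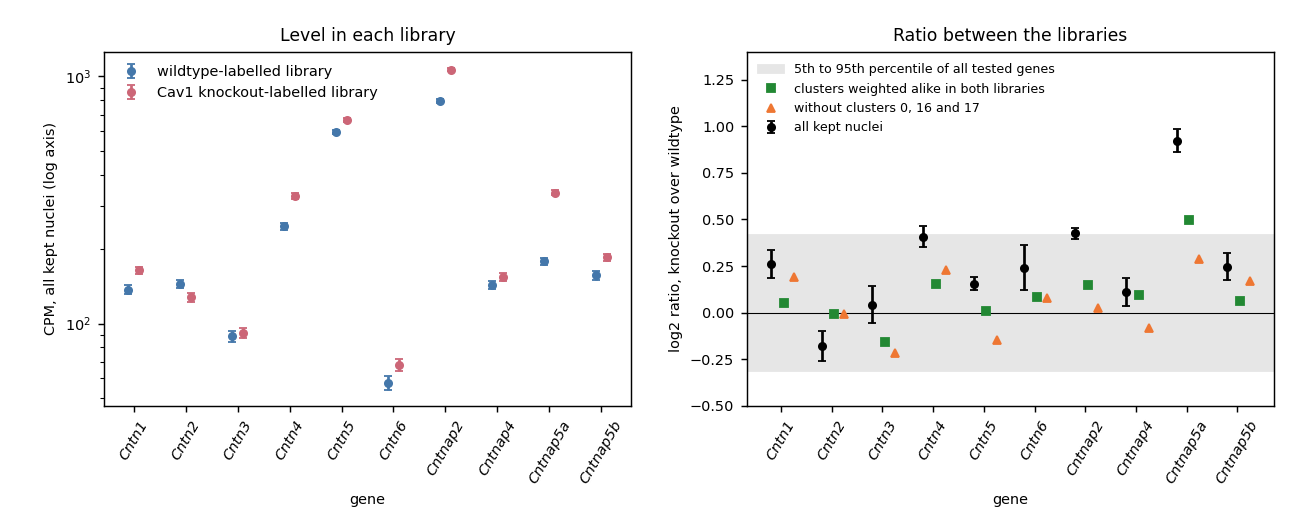
Left: level of each gene over all kept nuclei in CPM (log axis) in each library, with exact 95% Poisson intervals. Right: log2 ratio of knockout-labelled over wildtype-labelled over all kept nuclei (black, with 95% counting intervals), with the clusters weighted alike (green squares) and without the Snhg11-led, Kif23-led and Ebf2-led clusters, numbered 0, 16 and 17 (orange triangles); the grey band spans the 5th to 95th percentile of all tested genes. Cntnap5a falls from 0.92 to 0.50 and 0.29.

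Within single neuron clusters, 87 pairs of a member and a cluster had at least 100 UMIs. The log2 ratio was above 0 in 47 pairs and below 0 in 40. The fold passed 1.5 in 12 pairs (13.8%), of which 8 were higher and 4 lower in the knockout-labelled library, where 3.54% of the 46948 pairs of any gene and a neuron cluster did so, 1.94% higher and 1.6% lower. In the 11 clusters with at least 100 nuclei in each library it was 6 of 67 pairs against 3% of all genes, and in the 5 smaller clusters 6 of 20 against 7.93%. The members were chosen with their counts by neuron type and library known, so nothing is read from these differences. The background pairs were not matched for gene length. Cntnap2, Cntn2, Cntn6 and Cntnap5b passed 1.5-fold in no cluster, and the 6 Cntn3 pairs were all below 0.

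The interval of Cntnap5a lay above 0 in 4 of 7 clusters and below 0 in none. In the deep-layer cortical neuron-like cluster it had 40.7 (30.5 to 53.1) and 92.9 (76.8 to 111) CPM, a log2 ratio of 1.19. Snhg11 was 2.82-fold higher there, at 129 and 363. In the Gata and Tal1 cluster Cntnap5a had 168 (136 to 207) and 305 (252 to 366), a log2 ratio of 0.86, while Snhg11 had 474 and 410. In the Snhg11-led cluster its log2 ratio was 0.45 and in the Ebf2-led cluster 0.54, where those of Snhg11 were 0.14 and 0.04. In the midbrain excitatory (-0.04), thalamic (-0.03) and Tafa1-led (0.04) clusters the libraries differed by less than the counting error.

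Ratios of Cntnap2 lay on both sides of 0. Deep-layer cortical neuron-like nuclei had 235 and 344, a log2 ratio of 0.55 (0.34 to 0.77), both below the vascular level. The Ebf2-led (-0.31), Gata and Tal1 (-0.26) and midbrain excitatory (-0.21) clusters, with far higher levels, had intervals below 0. The Snhg11-led cluster had 0.20 (0.15 to 0.25). Of the 8 neuron clusters with Cntnap2 above the vascular level, 4 were higher and 4 lower in the knockout-labelled library.

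Cntn5 had pairs past 1.5-fold in both directions. It was higher with the knockout label in the Slit3-led (173 and 443, 2.56-fold), Lhx6 interneuron-like (125 and 217, log2 ratio 0.80) and Ebf2-led (718 and 1137, 0.66) clusters. It was lower in the Isl1-led cluster (1251 and 759, -0.72). In the Ikzf1-led cluster, where it was highest, the log2 ratio was -0.08, with an interval from -0.19 to 0.02. Cntn4 was higher in the Ebf2-led cluster (407 and 670, 0.72) and lower in the Tafa1-led cluster (97.4 and 50.7, -0.94). Cntnap4 was higher in the Slit3-led cluster (133 and 220, 0.73) and lower in the Gata and Tal1 cluster (135 and 86.7, -0.64). Cntn1 was higher in the thalamic cluster (162 and 253, 0.64), and Cntn3 lower in the Ikzf1-led cluster (362 and 228, -0.67).

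The levels in endothelial and mural clusters, which should lack these genes, also differed between the libraries. Together these clusters had 77.9 and 301 CPM of Cntn5, 46.1 and 123 of Cntnap5a, 104 and 163 of Cntn4 and 499 and 605 of Cntnap2, from 81 and 104 nuclei. Without the nuclei among the highest doublet scores, which left 65 and 81, the same clusters had 80.6 and 216 of Cntn5, 42.4 and 57.5 of Cntnap5a, 97.5 and 169 of Cntn4 and 632 and 507 of Cntnap2. By point values, 8 of the 12 pairs past 1.5-fold lay above the pool in both libraries, and 10 did when those nuclei were left out. The Cntn4 values of the Tafa1-led cluster (97.4 and 50.7) lay below the pool in both libraries either way. Without those nuclei, 97.4 lay inside the pool's counting interval (61.8 to 146). The Cntnap5a values of the deep-layer cluster (40.7 and 92.9) lay below the pool in both libraries, and in the wildtype-labelled one without those nuclei. There 40.7 lay inside the pool's interval (20.3 to 78.0). With those nuclei kept, the knockout-labelled Cntn5 value of the Lhx6 interneuron-like cluster (217, against 301) lay below the pool. So did the Cntnap4 value of the Gata and Tal1 cluster (86.7, against 103). Without them, both lay above the pool but inside its intervals (167 to 276 and 46.6 to 113). The part of this background in the ratios was not tested. For Cntnap5a, the Ebf2-led (599 and 872) and Snhg11-led (609 and 834) clusters lay far above it in both libraries.

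**Figure D4:**
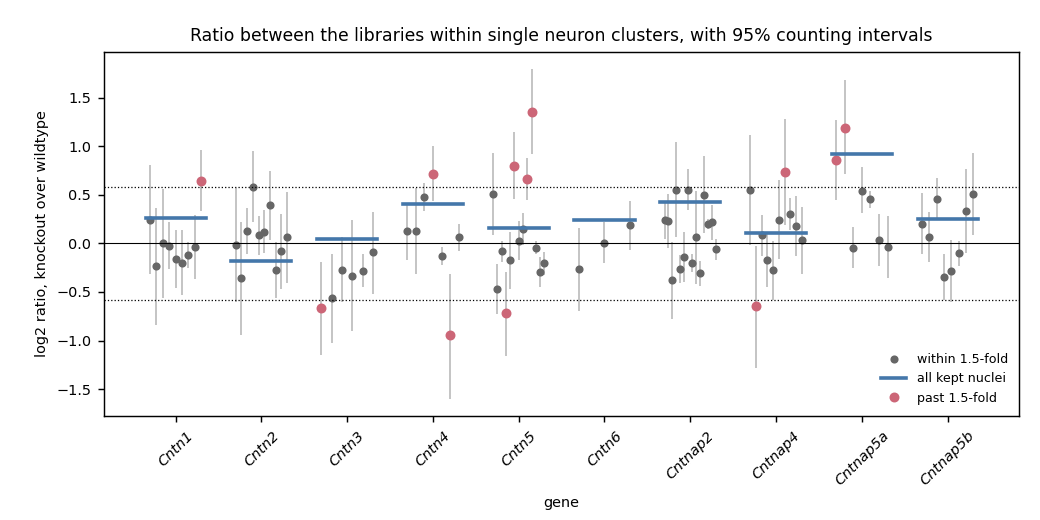
Log2 ratio of knockout-labelled over wildtype-labelled for each gene within single neuron clusters with at least 100 UMIs (87 points, grey lines are 95% counting intervals), with the ratio over all kept nuclei as a blue bar; red points are the 12 past 1.5-fold, marked by dotted lines. For Cntnap2 and Cntnap5a the bar lies above most of the points.

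Of the 31 genes listed as partners and other relatives, 30 were analysed here. Kcna2, a juxtaparanodal potassium channel (73 and 113 UMIs, with a log2 ratio of 0.42, from -0.02 to 0.87), and Cntnap1, the gene of CASPR (51 and 80 UMIs, 0.44, from -0.08 to 0.98), lay past 1.3-fold, both with intervals that included 0. None of the other 28 did, so 2 of 30 passed against a background of 9.01%, and the median of the list was 0.08. Of the 3 partners with most UMIs, Ank3, the ankyrin-G scaffold of axon initial segments and nodes, had 1385 and 1447 CPM (0.06). Dlg2, a postsynaptic and juxtaparanodal scaffold, had 752 and 796 (0.08), and App, the amyloid precursor protein that binds contactins, had 462 and 494 (0.10). All 3 amyloid precursor family genes were above 0, with a highest log2 ratio of 0.33 for Aplp1. The 4 L1 family genes, L1cam, Chl1, Nrcam and Nfasc, lay between -0.12 and 0.21.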

How the data were processed

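Single-nucleus RNA-seq was deposited by the authors as 1 matrix of raw UMI counts per library. The file headers name Cell Ranger 6.1.1 as the software. The submitters' processing notes name Cell Ranger 3.0.1, STAR and GRCm39. The annotation, the counting of introns and the use of strand are not given in the sources used here. Nuclei were kept at 500 or more genes and at most 5% mitochondrially encoded UMIs. The total depth of the kept nuclei was 17205381 and 19878903 UMIs. Doublets were kept: the Scrublet threshold marked 0 nuclei in either library, so the caller did not work, and leaving out the 8% of nuclei with the highest scores (535 and 534) is an alternative.

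Counts were clustered jointly with scanpy 1.11.5 and leidenalg 0.10.2 at resolution 1, without the members among the variable genes. Classes were named from marker lists, with thresholds for naming set after the clusters were seen. The values of 1 of the 16 neuron clusters are not reported here, although it is part of the counts over 16 neuron clusters. Levels are CPM with exact Poisson intervals, and ratios carry exact conditional binomial intervals, all at 95% and for counting error only. No test was made, since each genotype has 1 library. Genes with at least 100 UMIs over both libraries were counted past a fold of 1.3 over all nuclei, or 1.5 within clusters. Shares of nuclei were taken after thinning each nucleus to 1000 UMIs, leaving out shallower nuclei. Likeness used genes with at least 200 UMIs. The ratio intervals were tested on simulated counts drawn from the counting model that they assume. That test does not cover variation between nuclei, clusters or libraries.

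The text names all 10 members, the 3 genes most like each, partner genes past 1.3-fold, the 3 partners with most UMIs, and Cav1. The Snhg11 values and the pairs past 1.5-fold were chosen after values were seen. The members, marker lists and partner list were chosen with earlier results of these data known. Alternatives were doublets, gene minimum, scaling, depth, cluster weights, resolution, fold and UMI minimum.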

Additional observations from a re-analysis of the deposited data

Results flagged for a closer look

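Cntn4, Cntn5 and Cntnap4 each moved past 1.5-fold in opposite directions in different neuron clusters, with counting intervals on either side of 0. The log2 ratio of Cntn4, knockout-labelled over wildtype-labelled, was 0.72 in the Ebf2-led neuron-like cluster and -0.94 in the Tafa1-led neuron-like cluster, where it had 82 and 29 UMIs. Its levels in the Tafa1-led cluster (97.4 and 50.7 CPM) lay below those of the endothelial and mural clusters (104 and 163) in both libraries. Without the highest doublet scores, the wildtype-labelled value lay inside the counting interval of those clusters (61.8 to 146). The Unc5d-led cluster had less Cntn4 than any of these (6.79 and 7.40). How much of the Tafa1-led level is background was not tested. The log2 ratio of Cntn5 was 0.80 in Lhx6 interneuron-like nuclei, 0.66 in the Ebf2-led cluster and 1.35 in the Slit3-led neuron-like cluster. It was -0.72 in the Isl1-led Dlx inhibitory cluster. That of Cntnap4 was 0.73 in the Slit3-led cluster and -0.64 in the Gata and Tal1 inhibitory cluster. The knockout-labelled level there (86.7) was below that of the endothelial and mural clusters (103), and above it without the highest doublet scores (74.4). The differences between clusters were not tested, because each library is 1 sample and its clusters share it.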

How the results depend on the processing

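The count of members past 1.3-fold was 3 as reported, 2 or 3 under 6 other settings, 1 with the clusters weighted alike in both libraries, and 0 without clusters 0, 16 and 17, an alternative chosen after seeing the data. Fewer partner genes passed at a fold of 1.5 (0). The share of all genes past the fold was 2.72% at 1.5-fold and 18.5% with a minimum of 20 UMIs per gene. Log2 ratios over all nuclei ranged over the 8 alternatives from 0.29 to 0.94 for Cntnap5a, from 0.03 to 0.44 for Cntnap2 and from 0.15 to 0.44 for Cntn4. No value past 1.3-fold changed sign. Pairs past 1.5-fold within clusters numbered 12 of 87, 12 of 87 with scaling by the median ratio of the cluster's genes and 17 of 81 without the highest doublet scores. With the clusters of a class pooled, the class with the highest level was the same for 10 of 10 members at resolution 0.5, at resolution 2 and without the highest doublet scores, and for 9 with a minimum of 1000 genes. These classes are not always those of the highest single cluster: Cntn3, highest in 2 Dlx inhibitory clusters, was highest in the Cajal-Retzius class when pooled (167 CPM), and Cntn5, highest in a Dlx inhibitory cluster, in the thalamic class (1314), or in the Dlx inhibitory class (1369) with a minimum of 1000 genes. The levels of the highest single clusters were not traced through the other resolutions. Leaving the highest doublet scores out of the endothelial and mural clusters was chosen after seeing the data. Low counts limit Cav1 and the smaller clusters. No paired analysis was possible because each genotype has 1 library.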
